A study of Mus musculus with 4 samples.

Results

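Klf2, Klf4 and Klf5 are the genes named as targets of the guide RNAs in this experiment, and they were taken by name from a table of 45706 genes. All 3 were found under 1 Ensembl identifier each (ENSMUSG00000055148, ENSMUSG00000003032 and ENSMUSG00000005148), and all 3 passed the filter on low counts, as did 18005 genes in all. Messenger RNA was sequenced from the mouse embryonic stem cell line V6.5 after infection with a lentivirus that carries guides and a Cas9 gene switched on by doxycycline. Per the labels, a vector held either the KLF4 guide only or guides to KLF2, KLF4 and KLF5 in tandem, and clonal populations were picked after puromycin selection. The 0 h group (2 libraries, A and B, genotype given as KLF WT) was not induced, and the 24 h group (2 libraries, A and B, genotype given as KLF KO) had received doxycycline for 24 h. Titles of both groups carry the abbreviation TKO, while those at 24 h name a KLF4 knockout and those at 0 h name WT ESCs. Which guides each library carried, and whether the letters A and B mark the same clone at both times, is therefore uncertain. All cells grew on irradiated feeders with 15% serum, 1000 U/ml LIF and inhibitors of MEK (1 µM) and of GSK3 (3 µM). Per the labels, loss of protein was checked by western blot, whose values were not analysed here. The single contrast holds the drug, the cutting by Cas9, the loss of protein and the time that passed, and these cannot be told apart.

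Krüppel-like factors are transcription factors that bind GC-rich and CACC-type DNA through zinc fingers at the C-terminal end of the protein. KLF2, KLF4 and KLF5 are known to act redundantly in the naive state of mouse embryonic stem cells, where Klf4 is induced by LIF through STAT3 and Klf2 is held down by signalling through MEK. KLF4 is also 1 of the factors used to reprogram somatic cells. Cas9 leaves small insertions and deletions at its target, and such a change can remove the protein whether or not the transcript's level changes.

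The coding sequence of the last zinc finger is shown because the finger array is the conserved part of this family, in which short reads of the 3 genes could be confused. The sequences come from GENCODE M21 on GRCm38, run from the first cysteine codon to the last histidine codon, and have in capitals the 41 of 63 bases that are identical in all 3 genes.
Klf2: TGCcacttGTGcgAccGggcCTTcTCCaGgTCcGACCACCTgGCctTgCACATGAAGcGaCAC
Klf4: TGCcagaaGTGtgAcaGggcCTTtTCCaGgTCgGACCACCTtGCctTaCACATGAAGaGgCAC
Klf5: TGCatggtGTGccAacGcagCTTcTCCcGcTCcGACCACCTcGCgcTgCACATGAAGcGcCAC
Over the whole array of 3 fingers (243 bases), Klf2 and Klf4 shared 78.2% of bases and 91.4% of encoded residues. Klf2 and Klf5 shared 70.4% of bases and 81.5% of residues, and Klf4 and Klf5 68.3% and 82.7%. No 50-base window of any of the 3 longest transcripts was identical to a window of another of them, or within 2 mismatches of one. The closest windows differed by 7 bases for Klf2 and Klf4, by 9 for Klf2 and Klf5 and by 11 for Klf4 and Klf5. A 50-base read from 1 of these transcripts therefore does not match another within 2 mismatches. Klf4 shared 8 of its 2980 windows with Gm48640 and Klf5 4 of 3303 with Gm6007. Under both of those names 0 counts were found in the 4 libraries together. If the 2 genes were counted, that allows up to 3 counts each. Whether they were counted was not checked, and how reads that match 2 genes were handled is not given.

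Klf2 lies on chromosome 8 (72319033 to 72321656, plus strand), Klf4 on chromosome 4 (55527143 to 55532466, minus strand) and Klf5 on chromosome 14 (99298691 to 99315036, plus strand) of GRCm38. No other annotated gene overlaps any of them on either strand. The longest transcripts are 1847, 3029 and 3352 bases, with a GC content of 61.6%, 54.6% and 47.9%. Counts are given per gene, so a change at a cut site within an exon need not show in them. The shorter Klf5 isoform ends before the last coding exon. It was counted together with the long one if the annotation used for counting held it.

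Libraries held 46031578 to 52412844 counts. The stem cell identity of the libraries was checked on 8 marker genes, all of which passed the filter, with a summed level of 3805 to 4315 CPM (CPM, counts scaled by TMM to the same library size). Of 20 fibroblast markers that could stem from feeders, 17 passed the filter, with a summed level of 3639 and 2947 CPM at 0 h (A and B) and 2870 and 2822 CPM at 24 h. Fn1 (1988 to 2611 CPM) and Sparc (625.5 to 784.4 CPM) made up most of that sum. Of the 17, 0 rose (4.15% of all genes tested did) and 1 fell (2.65% did) in edgeR, Pdgfrb, from 13.6 and 10.6 CPM at 0 h to 6.04 and 5.86 CPM at 24 h. The part of feeder RNA in the results was not tested. Leaving out 0 h replicate A gave 3 higher and 3 lower markers (32.2% of all genes were called in that fit), leaving out 0 h replicate B 1 and 7 (50.2%), leaving out 24 h replicate A 0 and 1, and leaving out 24 h replicate B 0 and 0. Lum, Dcn and S100a4 did not pass the filter, Pdgfra was at 1.05 to 1.44 CPM, and Col1a1 was at 90.1 and 59.6 CPM at 0 h and 69.1 and 67.4 CPM at 24 h. These are bulk samples, so fewer cells of a type and less RNA per cell cannot be told apart.

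At 24 h the transcripts of the 3 genes were still abundant. None was past the edgeR quasi-likelihood test with Benjamini-Hochberg adjustment over 18005 genes, of which 1225 (6.80%) were called. Klf5 was lowest relative to 0 h, at 60.9% of its 0 h level by the fit (95% interval 45.9 to 80.8). Klf4 was at 81.6% (65.5 to 101.7) and Klf2 at 84.3% (55.4 to 128.3). A fall below 45.9% of the 0 h level thus lay outside all 3 intervals. These intervals rest on a spread that the fit moderates across genes.

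Klf5, a factor of the inner cell mass and of many epithelia, was at 430.9 CPM in 0 h replicate A, 294.3 in 0 h replicate B, 225.9 in 24 h replicate A and 215.6 in 24 h replicate B. Both 24 h libraries lay below both 0 h libraries, as they did for 29.5% of the genes tested. The mean was 362.6 ± 96.5 CPM at 0 h and 220.8 ± 7.23 CPM at 24 h (SD, n = 2). The log2 fold change was -0.72 (SE 0.17, 95% interval -1.12 to -0.31). The unadjusted p of 0.00424 ranked 1346 among the 18005 genes, and the adjusted p was 0.0567 in edgeR's quasi-likelihood test. The call turned on the setting: with DESeq2's size factors in the same edgeR fit the adjusted p was 0.0473, with DESeq2's Wald test 0.00103, and with limma voom 0.0685. These 3 settings called 7.21%, 11.6% and 6.03% of all genes tested. Klf5 was also not called with upper-quartile scaling, with library size only or with a filter on a mean CPM of at least 1. The adjusted p was then 0.05098, 0.056 and 0.05485 in edgeR. Without a filter on low counts, with the replicate letter as a block, and with that block and a GC and length trend removed, Klf5 was called too, where 9.71%, 18.1% and 33.5% of all genes were. With the trend removed and no block it was called as well, where 26.0% of all genes were.

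Klf4, the factor named in the titles of the 24 h libraries, was at 331.4 and 257.0 CPM in 0 h replicates A and B and at 244.4 and 235.7 CPM in 24 h replicates A and B. The 24 h libraries both lay below both 0 h libraries, as they did for 29.5% of the genes tested. However, 0 h replicate B lay closer to the 24 h libraries than to 0 h replicate A. The mean was 294.2 ± 52.6 CPM at 0 h and 240.1 ± 6.17 CPM at 24 h (SD, n = 2), and the log2 fold change was -0.29 (SE 0.13, 95% interval -0.61 to 0.02; adjusted p = 0.223 in edgeR). With a trend on GC content and transcript length removed from each library, the log2 fold change was -0.21 and Klf4 was called lower (adjusted p = 0.0280 in edgeR). In that fit 26.0% of all genes were called.

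Klf2, known outside the embryo for its part in endothelial cells and resting T cells, was at 231.9 and 123.5 CPM in 0 h replicates A and B and at 147.3 and 152.5 CPM in 24 h replicates A and B. The 24 h libraries lay between the 0 h libraries, so the groups overlapped. The mean was 177.7 ± 76.7 CPM at 0 h and 149.9 ± 3.67 CPM at 24 h (SD, n = 2). The log2 fold change was -0.25 (SE 0.26, 95% interval -0.85 to 0.36; adjusted p = 0.580 in edgeR). With the GC and length trend removed the sign turned, to 0.12 (adjusted p = 0.440).

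**Figure D1:**
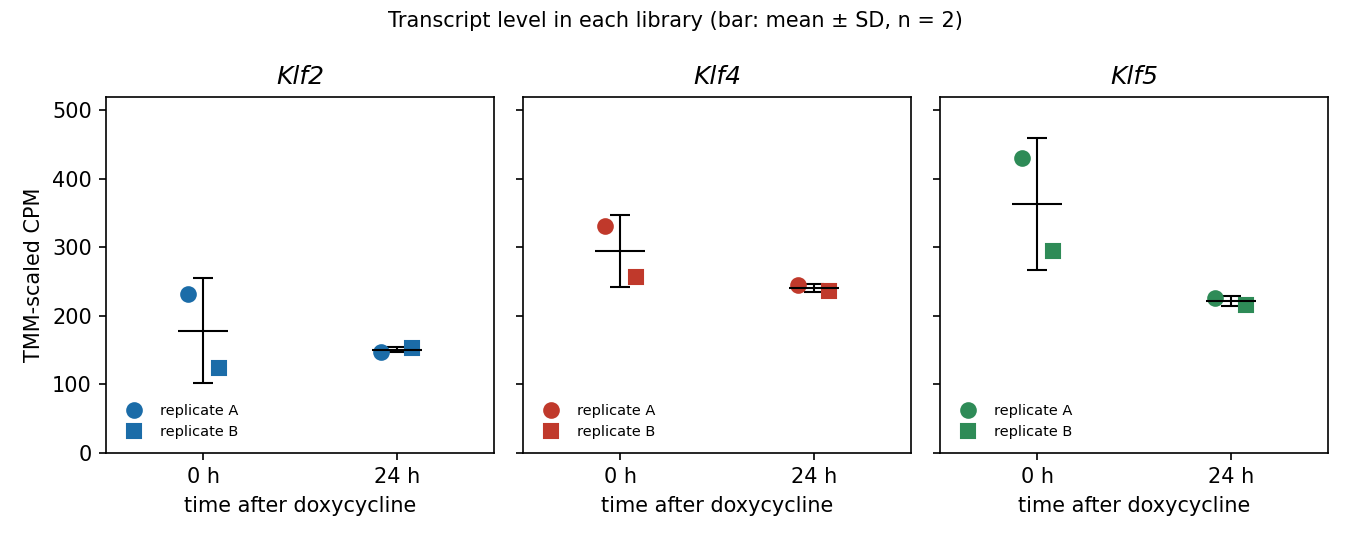
TMM-scaled CPM (vertical axis, from 0) of Klf2, Klf4 and Klf5 in the 2 libraries at 0 h and the 2 at 24 h, with replicate A as circles, replicate B as squares and bars for the mean ± SD. In each panel 0 h replicate A is the highest library, and the 24 h libraries lie close together, at 147.3 and 152.5 CPM for Klf2, 244.4 and 235.7 for Klf4 and 225.9 and 215.6 for Klf5.

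At 0 h the replicates lay further apart than counting error, which was small, since each gene had 6002 to 21797 counts per library, which gives a counting SD of 1.29% to 0.677%. Klf2 was 1.88 times as high in 0 h replicate A as in 0 h replicate B, a log2 difference of 0.91, which exceeded that of 99.85% of the 2606 genes within 2-fold of its level. For Klf5 the ratio was 1.46 (larger than for 94.6% of 1445 genes of like level), and for Klf4 1.29 (77.6% of 1580 genes). At 24 h the same ratios were 0.966 for Klf2, 1.05 for Klf5 and 1.04 for Klf4. Each gene thus differed more between its 0 h libraries than between its 24 h libraries, and so did genes in general. Over 11293 genes with a mean of at least 5 CPM, the log2 difference between replicates had an SD of 0.32 at 0 h and 0.13 at 24 h.

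The difference between the 0 h libraries moved with GC content across genes. Over 11293 genes with a mean of at least 5 CPM, the log2 difference between replicates A and B correlated with GC content at r = 0.783 at 0 h and 0.213 at 24 h, a description across genes that share these libraries. Among 217 genes within 1 percentage point of Klf2's GC content, the median 0 h difference was 0.60 (middle 50% from 0.46 to 0.70), below Klf2's 0.91. Among 1145 genes near Klf4's GC content it was 0.27 (0.16 to 0.36), and Klf4, at 0.37, lay just above that range. Among 1206 genes near Klf5's GC content it was -0.03 (-0.13 to 0.08), while Klf5 was at 0.55. All 3 genes were thus higher in 0 h replicate A than most genes of their own base composition. With the trend removed, Klf2 was at 173.1 and 133.2 CPM in the 0 h replicates A and B and 161.5 and 172.7 CPM in the 24 h replicates A and B. Klf4 was then at 294.6, 274.4, 249.3 and 243.4 CPM in the same order, and Klf5 at 441.2, 297.2, 222.9 and 211.4 CPM. The removal brought the 0 h libraries closer for Klf2 and Klf4 and left those of Klf5 about as far apart as before.

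**Figure D2:**
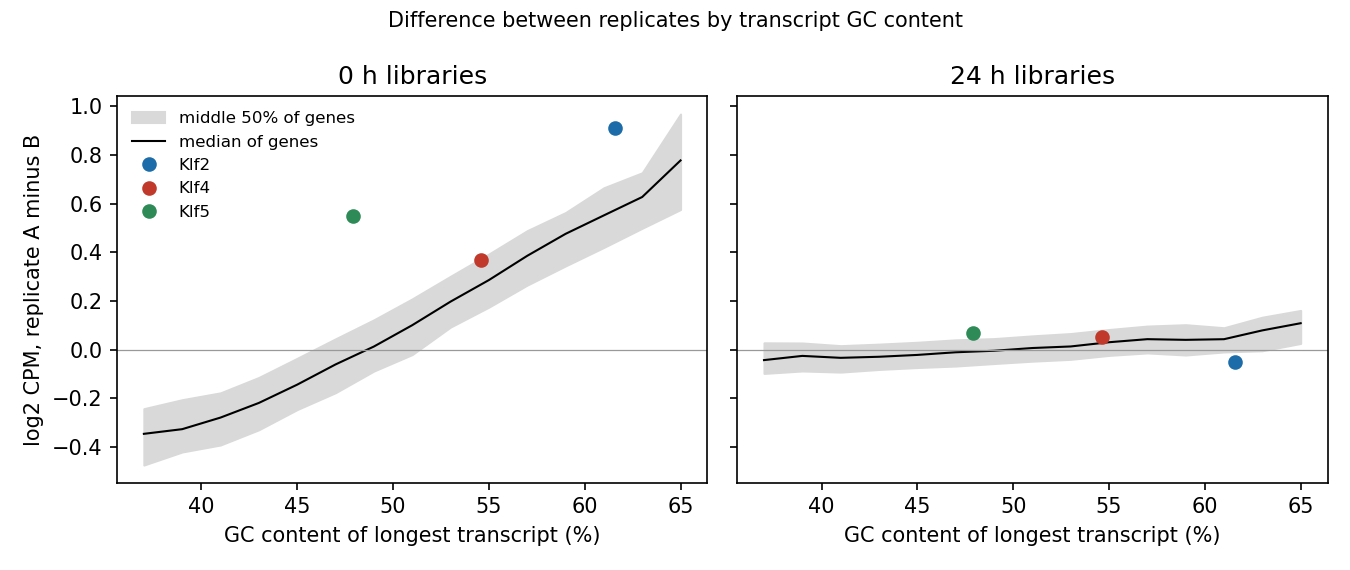
Log2 difference in CPM between replicates A and B (vertical axis) against the GC content of the longest transcript (horizontal axis, percent) at 0 h and 24 h. The line and band give the median and the middle 50% of genes in bins of 2 percentage points with at least 20 genes, and the points are Klf2, Klf4 and Klf5, which lie above the line at 0 h with 0.91, 0.37 and 0.55.

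Because 0 h replicate A was the highest library for all 3 genes, the values were also computed with each library left out. Without 0 h replicate A the log2 fold changes were 0.28 for Klf2, -0.10 for Klf4 and -0.42 for Klf5. Without 0 h replicate B they were -0.63, -0.47 and -0.97. Leaving out 24 h replicate A gave -0.24, -0.34 and -0.77, and leaving out 24 h replicate B gave -0.28, -0.28 and -0.69. Klf5 was lower at 24 h in each of these fits, Klf4 also was, and Klf2 changed sign with 0 h replicate A. edgeR called 2 of the 3 genes without 0 h replicate A (Klf2 higher and Klf5 lower), 3 lower without 0 h replicate B, and none once a 24 h library was left out. The share of all genes called was 32.2%, 50.2%, 3.02% and 2.71% in the 4 fits. In these fits 1 group is a single library, taken to vary as the other group does, so their calls do not measure the spread of that sample's group.

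**Figure D3:**
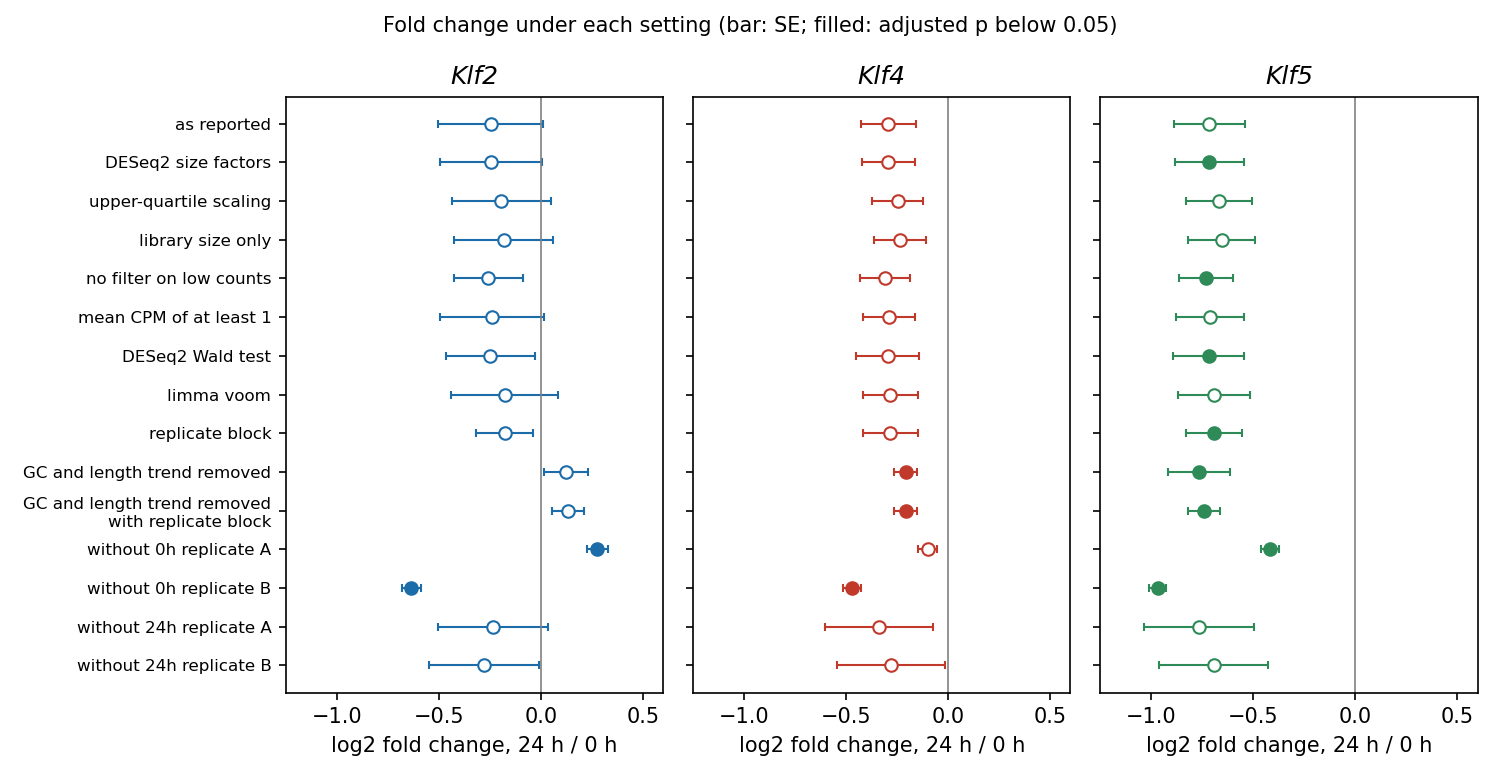
Log2 fold change of 24 h over 0 h (horizontal axis) with its SE for Klf2, Klf4 and Klf5 under each setting (rows), with filled points where the adjusted p was below 0.05. Klf5 is below 0 in every row, from -0.97 to -0.42, Klf4 from -0.47 to -0.10, and Klf2 lies on both sides of 0, from -0.63 to 0.28.

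Levels of different genes were compared as CPM per kb of exon. Klf2 was at 125.6 and 66.9 CPM per kb in 0 h replicates A and B and 79.7 and 82.5 in 24 h replicates A and B. Klf4 was at 108.7, 84.3, 80.2 and 77.3 CPM per kb in the same order of libraries, and Klf5 at 82.8, 56.6, 43.4 and 41.5. Klf2 and Klf4 did not differ beyond their spread, since each was the higher of the pair in 2 of the 4 libraries. Klf5 was the lowest of the 3 in each library on this scale. That place rests on the gene model, because the union of the Klf5 exons (5201 bases) holds the long end of its shorter isoform. Divided by the longest transcript, Klf5 was at 128.5 and 87.8 CPM per kb at 0 h, the highest of the 3 in both libraries, and at 67.4 and 64.3 at 24 h, the lowest in both. On the exon scale each gene ranked above 92% of the genes tested in each library.

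Ratios between the genes within a library were compared next, on the per-kb scale. Klf4 over Klf5 was 1.31 and 1.49 in 0 h replicates A and B and 1.85 and 1.87 in 24 h replicates A and B, a difference of 0.41 in the mean log2 ratio. Klf2 over Klf5 had ratios of 1.52 and 1.18 at 0 h, and of 1.84 and 1.99 at 24 h, a difference of 0.51 in the mean log2 ratio. Both ratios were higher in each 24 h library than in each 0 h library. Klf2 over Klf4 had ratios of 1.15 and 0.793 at 0 h, and at 24 h ratios of 0.994 and 1.07 lay between them. An exact permutation test over the 4 libraries (2-sided, 6 arrangements) gave p = 0.333 for the ratios over Klf5, the smallest p that 2 libraries against 2 allow, and p = 1.0 for Klf2 over Klf4 (0.5, 0.5 and 1.0 adjusted over the 3 pairs). This permutation test therefore cannot reach 0.05 for any of the 3 ratios.

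Summed over the 3 genes, the level was 317.1 and 207.7 CPM per kb in 0 h replicates A and B and 203.3 and 201.3 in 24 h replicates A and B. The 0 h replicate B thus lay near the 24 h libraries in the sum, and 0 h replicate A stood above the other 3 libraries. Klf5 made up 26.1% and 27.2% of the sum at 0 h and 21.4% and 20.6% at 24 h. Klf4 made up 34.3% and 40.6% at 0 h, and 39.4% and 38.4% at 24 h. Divided by the longest transcript, Klf5 made up 35.4% and 36.7% at 0 h and 29.6% and 28.6% at 24 h. Klf4 was then at 30.1% and 35.4% at 0 h and 35.4% and 34.6% at 24 h.

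Among the 26 KLF and SP factors, which share the zinc-finger array, Klf2 and Klf4 held the first and second rank per kb of exon in each library. Klf5 had rank 3 at 0 h in both libraries and rank 4 at 24 h in both, where Sp1, a widely expressed factor, had rank 3. These ranks rest on the exon length: by the longest transcript the mean over the 4 libraries was 87.0 CPM per kb for Klf5 and 51.3 for Sp1, against 56.1 and 48.1 per kb of exon. The 3 genes together held 51.4% and 42.6% of the summed level of the family at 0 h (A and B) and 44.1% in both 24 h libraries. Of the other 23 factors, 0 rose and 2 fell in edgeR (2.65% of all genes tested were called lower), with a median log2 fold change of -0.10 against -0.01 over all genes tested. Klf8 fell from 50.1 ± 0.621 to 27.2 ± 0.942 CPM (SD, n = 2) and Klf3 by 0.66 on the log2 scale (adjusted p = 0.0299, edgeR). Klf3 overlaps 2 noncoding genes, and its counts are uncertain. The most abundant others, Sp1 and Klf9, had log2 fold changes of -0.10 and 0.09 and did not pass. With 0 h replicate A left out 2 rose and 5 fell (32.2% of all genes were called), with 0 h replicate B 4 and 10 (50.2%), with 24 h replicate A 1 and 1 (3.02%), and with 24 h replicate B 1 and 0 (2.71%).

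**Figure D4:**
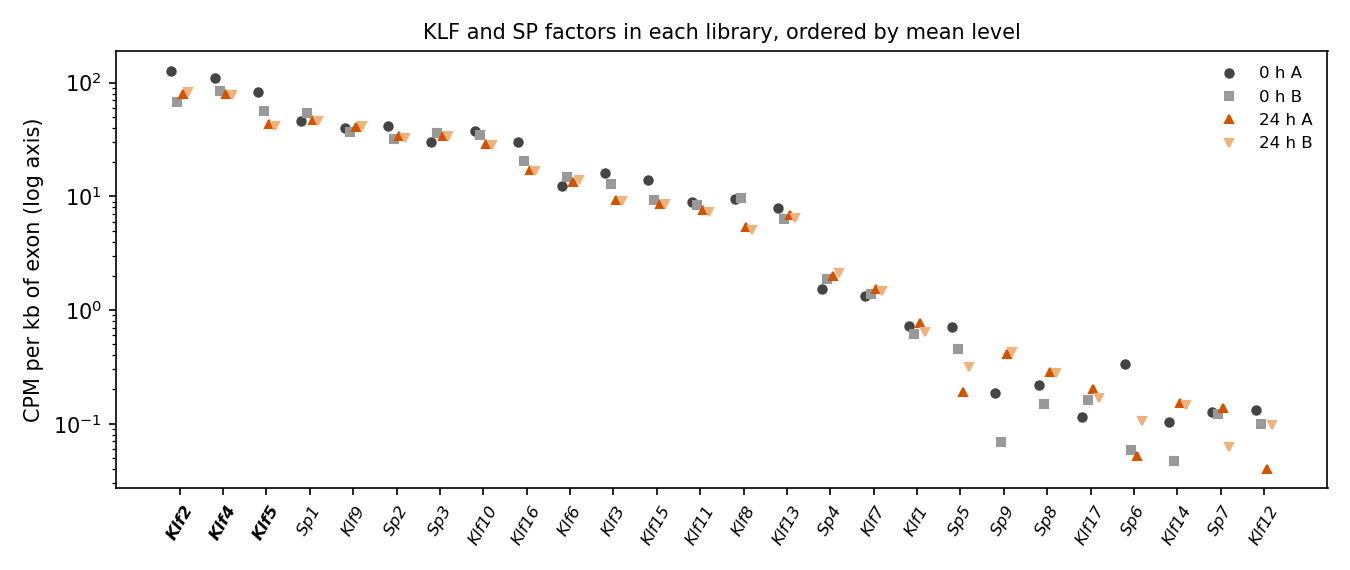
Level of the 26 KLF and SP factors in CPM per kb of exon (vertical log axis) in each of the 4 libraries (symbols), ordered by their mean. Klf2, Klf4 and Klf5 are at the left, with Klf2 and Klf4 first or second in each library.

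The signals known to feed the 3 genes were followed in a list of 17 genes of the LIF, MEK and Wnt pathways. In edgeR 1 rose (4.15% of all genes tested did), 0 fell (2.65% did) and 16 did not pass, with a median log2 fold change of -0.23, and 7 had an unadjusted p under 0.05 (25.8% of all genes tested did). Lifr, the receptor for LIF, rose from 80.8 to 111.9 CPM (log2 fold change 0.47, adjusted p = 0.0472 in edgeR). Its call was lost with limma voom, with a filter on a mean CPM of at least 1, and without either 24 h replicate. Ctnnb1, which encodes beta-catenin, was at 760.4 and 685.3 CPM at 0 h (A and B) and 647.2 and 627.3 CPM at 24 h, with a log2 fold change of -0.18, and did not pass. The list gave 2 higher and 8 lower when 0 h replicate A was left out (32.2% of all genes were called then), 3 and 11 when 0 h replicate B was (50.2%), and 0 and 0 when either 24 h replicate was.

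Proteins that turn over or export KLF factors were given by 10 genes, among them the ubiquitin ligase genes Wwp1 and Fbxw7, which act on KLF2 and KLF5, and Btrc, which acts on KLF4. In edgeR 0 of the 10 passed (6.80% of all genes tested did), and 1 had an unadjusted p under 0.05 (25.8% did). DESeq2 and limma voom also called 0. Their median log2 fold change was -0.11. The export receptor gene Xpo1 was at 513.0 and 690.9 CPM at 0 h (A and B) and 588.7 and 612.6 CPM at 24 h, so that the 24 h libraries lay between the 0 h libraries. Bap1, which encodes a deubiquitinase of KLF5, had a log2 fold change of -0.26 (adjusted p = 0.211, edgeR). Other settings gave calls: removing the GC and length trend gave 1 higher and 3 lower (26.0% of all genes were called), leaving out 0 h replicate A 1 and 4 (32.2%), and leaving out 0 h replicate B 3 and 4 (50.2%).

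Of 16 genes known as targets or partners of KLF factors in pluripotent cells, 0 rose (4.15% of all genes tested did), 5 fell (2.65% did) and 11 did not pass, with a median log2 fold change of -0.24. Tcl1, a cofactor of AKT, fell from 129.2 and 109.8 CPM (0 h, A and B) to 63.9 and 60.2 CPM (24 h). Its log2 fold change was -0.95 (SE 0.12, adjusted p = 0.00979 in edgeR), larger in size than that of Klf5. The nuclear receptor gene Nr0b1 fell by 0.72, Pou5f1 (which encodes OCT4) by 0.54, the naive regulator Prdm14 by 0.48 and Zfp42 (which encodes REX1) by 0.45 on the log2 scale. Pou5f1 overlaps a noncoding gene, and its counts are uncertain. Nanog, at 1028 and 1240 CPM at 0 h and 917.7 and 936.6 CPM at 24 h, did not pass, nor did Tfcp2l1, at 1441 and 1471 CPM and 1264 and 1247 CPM. The list gave 4 higher and 8 lower when 0 h replicate A was left out (32.2% of all genes were called then), 1 and 9 when 0 h replicate B was (50.2%), and 0 and 1 when either 24 h replicate was. Tcl1 stayed called in each alternative fit.

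Genes known as KLF targets in other cell types, such as endothelium, gut and skin, were given by 15 genes, of which 11 passed the filter. Alpi, Ivl and Krt4 were among those that did not. In edgeR 0 rose (4.15% of all genes tested did) and 1 fell (2.65% did), with a median log2 fold change of 0.01. Ccnd1, which encodes cyclin D1, fell from 143.0 and 131.2 CPM at 0 h to 92.8 and 90.2 CPM at 24 h (adjusted p = 0.0236, edgeR), and overlaps LTO1. Cdh1, which encodes E-cadherin, and Trp53, which encodes p53, had log2 fold changes of 0.04 and 0.01 and did not pass. The list gave 3 higher and 3 lower with 0 h replicate A left out (32.2% of all genes were called then), 1 and 5 with 0 h replicate B left out (50.2%), and 0 with either 24 h replicate left out.

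Klf2 and Klf4 are also known as genes that respond early to serum and handling, so 16 immediate early genes were counted, of which 14 passed the filter. Their summed level was 364.7 and 293.9 CPM at 0 h (A and B) and 371.4 and 360.3 CPM at 24 h. Without Btg2, the 1 gene called, the sum over the other 13 was 254.0 and 180.4 CPM at 0 h and 184.2 and 171.8 CPM at 24 h, a sum added after seeing the data. This sum without Btg2 was highest in 0 h replicate A, as Klf2, Klf4 and Klf5 were, while the sum over all 14 was highest in 24 h replicate A. The GC and length trend was not removed from either sum. The part of these genes in the values of Klf2, Klf4 and Klf5 was not tested. In edgeR 1 rose (4.15% of all genes tested did) and 0 fell (2.65% did): Btg2, an antiproliferative gene induced by p53, rose from 110.7 and 113.6 CPM to 187.2 and 188.5 CPM (log2 fold change 0.74, SE 0.10, adjusted p = 0.0101). Ier2 was at 83.1 and 50.1 CPM at 0 h and 47.5 and 44.0 CPM at 24 h and did not pass. Leaving out 0 h replicate A gave 4 higher and 1 lower (32.2% of all genes were called in that fit), leaving out 0 h replicate B 1 and 6 (50.2%), and leaving out either 24 h replicate 0.

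Of the 8 stem cell markers, 0 rose (4.15% of all genes tested did) and 3 fell (2.65% did) in edgeR: Pou5f1 and Zfp42, also in the list of targets and partners, and Utf1, a chromatin factor of pluripotent cells. Utf1 fell from 129.8 and 83.3 CPM at 0 h to 56.2 and 55.3 CPM at 24 h (adjusted p = 0.0386, edgeR). Esrrb, at 853.9 and 661.6 CPM at 0 h and 778.0 and 752.0 CPM at 24 h, did not pass. With 0 h replicate A left out 2 rose and 4 fell (32.2% of all genes were called in that fit), with 0 h replicate B left out 2 and 5 (50.2%), and with either 24 h replicate left out 0 and 1.

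Genes next to the 3 loci were counted by position. The start sites of 31 tested genes lay within 500 kb of that of Klf2, Klf4 or Klf5. Of these 31, 4 were called in edgeR (12.9%, against 6.80% of all genes tested). All 4 fell, as 2.65% of all genes tested did. Rad23b, a DNA repair and proteasome shuttle gene 182.4 kb downstream of Klf4, was the single neighbour of Klf4 with a mean of at least 5 CPM. It went from 791.2 and 777.7 CPM at 0 h to 508.8 and 498.8 CPM at 24 h (log2 fold change -0.64, adjusted p = 0.0124 in edgeR). Its 24 h libraries both lay below both 0 h libraries, as for 29.5% of the genes tested, and its 0 h libraries were close to each other.

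Around Klf5, the 4 neighbours with a mean of at least 5 CPM had log2 fold changes from -0.57 to -0.54. Each had both 24 h values below both 0 h values, as 29.5% of all genes tested did. Mzt1, which encodes a component of the gamma-tubulin ring complex, was at 86.9 and 98.3 CPM at 0 h (A and B) and 62.9 and 62.3 CPM at 24 h (adjusted p = 0.0310, edgeR). Bora, which encodes an activator of Aurora A, was at 88.5 and 101.2 CPM at 0 h and 63.2 and 66.9 CPM at 24 h (adjusted p = 0.0374). Dis3, which encodes a nuclease of the exosome, had an adjusted p of 0.0551 and Pibf1 of 0.145 in edgeR. Dis3 and Pibf1 overlap each other, and their counts are uncertain. The start sites of Mzt1 and Bora lie upstream of that of Klf5, at -252.6 and -252.5 kb, and those of Pibf1 and Dis3 at -199.3 and -198.9 kb. All 4 genes were lower in 0 h replicate A than in 0 h replicate B, the opposite of Klf5. No gene at that level had its start site 500 to 2000 kb from Klf5, and the 8 at 2000 to 5000 kb had a median log2 fold change of -0.11.

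Around Klf2, 1 of 23 tested neighbours fell (2.65% of all genes tested did). It was the low gene Hsh2d, at 2.71 and 2.14 CPM at 0 h and 0.765 and 1.00 CPM at 24 h. Cherp and Sin3b, the most abundant neighbours, had log2 fold changes of -0.55 and -0.46 and did not pass. Of 14 neighbours with a mean of at least 5 CPM, 12 had a negative log2 fold change, with a median of -0.34. At 500 to 1000 kb all 20 such genes had a negative value, 6 fell and the median was -0.56. The lean went on further out. At 1000 to 2000 kb 24 of 26 such genes had a negative value, 2 fell and the median was -0.39. At 2000 to 5000 kb it was 24 of 32, 0 fell and the median was -0.12. Of the 11310 genes at that level 6226 had a negative value and 354 fell, and their median was -0.04. The 20 genes had a median GC content of 56.8%, against 49.7% over all genes at that level. Removing the GC and length trend gave the 20 genes a median log2 fold change of -0.30, against -0.06 over all genes at that level. At 1000 to 2000 kb (median GC content 58.4%) it was then -0.12, and at 2000 to 5000 kb (52.6%) -0.09. These distance bins were chosen after seeing the data. The 4 calls within 500 kb became 18 with 0 h replicate A left out (32.2% of all genes were called), 20 with 0 h replicate B (50.2%), 0 with 24 h replicate A (3.02%) and 1 with 24 h replicate B left out (2.71%).

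**Figure D5:**
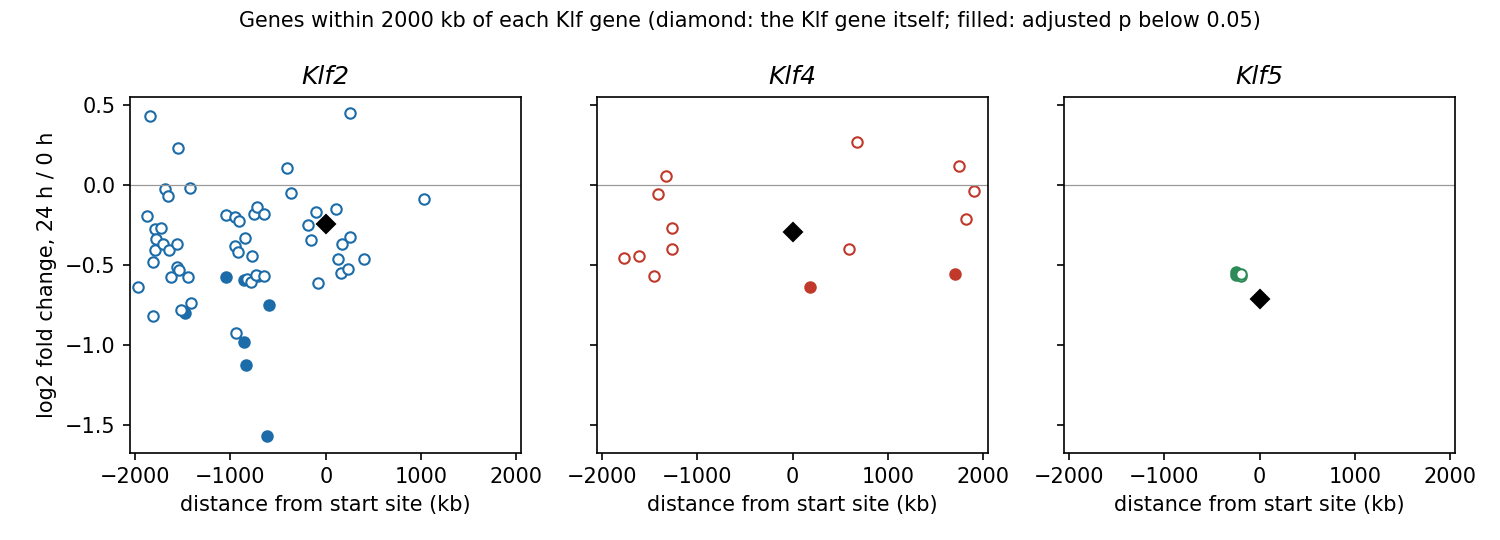
Log2 fold change of 24 h over 0 h (vertical axis) of tested genes with a mean of at least 5 CPM, by distance of their start site from that of Klf2, Klf4 or Klf5 (horizontal axis, kb, positive in the direction of transcription). Diamonds are the Klf genes and filled circles are genes past edgeR's test. All 20 genes at 500 to 1000 kb from Klf2 and all 4 within 500 kb of Klf5 lie below 0. So do 24 of 26 genes at 1000 to 2000 kb from Klf2.

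The genes most like each of the 3 over the 4 libraries were found by the Euclidean distance of centred log2 CPM, among 11309 genes with a mean of at least 5 CPM. The 5 nearest to Klf2 were Ppp1r14a, Tbcc, Shisa8, Mex3d and Fam207a, at distances of 0.115 to 0.127. The 5 nearest to Klf4 were Acsf2, Tm2d2, Tuba1b, Atxn7l3 and Prr14, at 0.0122 to 0.0172. The 5 nearest to Klf5 were the fatty acid synthase gene Fasn (0.0169), Samd1, Agpat2, Sf3b4 and Fam129b. Klf2 had no neighbour as near as those of Klf4 and Klf5. The 5 nearest to Klf2 (GC content 61.6%) had a GC content of 56.7% to 65.9%. The 5 nearest to Klf5 (47.9%) were also GC-rich, at 56.2% to 67.3%. Those nearest to Klf4 (54.6%) were at 50.8% to 56.2%. None of the 3 genes was among the 5 nearest of another. By distance from Klf2, Klf4 ranked 1161 and Klf5 3789. Klf2 ranked 5351 and Klf5 5714 from Klf4, and Klf4 ranked 1609 and Klf2 3069 from Klf5. None of the 15 nearest genes was past edgeR's test. They were chosen for profiles like those of 3 genes that did not pass, so this is not a separate result.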

How the data were processed

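The authors deposited raw read counts per Ensembl gene for 4 libraries. Per the labels' protocols these came from a stranded mRNA kit and single 50 nt reads. Per the submitters' processing notes, the tools were TopHat2, HTSeq and DESeq and the build was mm10; what each did and in which version is not given in the sources used here, nor are the annotation release and strand setting. GENCODE M21 (GRCm38, the same assembly) supplied symbols, lengths and GC content. No gene model was found for 563 identifiers (0.107% of counts).

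Genes were filtered with filterByExpr (minimum count 10, minimum total 15), scaled by TMM and tested 2-sided with the quasi-likelihood test of edgeR 4.0.16 (R 4.3.3; legacy=TRUE). P-values were adjusted by Benjamini-Hochberg over all genes tested, and 0.05 was the threshold. Alternatives used DESeq2 1.42.0, limma 3.58.1, other scalings and filters, a block on the replicate letter, and leaving out libraries in turn. The trend on GC content and length was fitted by loess (span 0.3) in each library. Log2 ratios were tested by exact permutation. Figures were drawn with matplotlib 3.10.9. On simulated data (17690 genes run for 24 h against 0 h) the test recovered 8.96% of genes changed by 0.5, 97.0% by 1 and 100% by 2 on the log2 scale, with 6 false calls. The simulated counts were drawn independently for each gene, without the GC trend that genes share in the real libraries. These rates therefore need not hold for the real libraries.

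For a count of 0 the upper limit, 3 counts of a library's total, is 0.0572 to 0.0652 CPM, and it covers counting error only. P-values of the fits measure only the spread between these libraries, with the estimate for each gene moderated by those of other genes. The series' design text calls these libraries biological replicates. Named from each list were every gene past the test if 6 or fewer, otherwise the 6 of lowest p, and the 2 most abundant. The 3 genes and the lists were chosen with earlier results of these data known. Some items of these lists are counted but not reported here by name.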

Additional observations from a re-analysis of the deposited data

How the results depend on the processing

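Klf5 and Klf4 were lower at 24 h under each alternative scaling, filter, test, block, trend removal and left-out library, and Klf2 was not. The log2 fold change of Klf2 was 0.12 with the GC and length trend removed, 0.135 with the trend removed and the replicate block, and -0.63 to 0.28 with 1 library left out. Klf4 was at -0.21 with the trend removed, -0.21 with the trend removed and the block (adjusted p = 0.00793, edgeR), and -0.47 to -0.10 with 1 library left out. Klf5 was at -0.71 with DESeq2's size factors, -0.73 without a filter, -0.72 with DESeq2's Wald test, -0.77 with the trend removed and -0.97 to -0.42 with 1 library left out. With the replicate letter as a block Klf5 was at -0.69 (adjusted p = 1.34e-05, edgeR), and with the block and the trend removed at -0.74 (1.52e-07). Same-lettered libraries deviated together with r = 0.305 over 11310 genes, but the labels do not say that a letter marks a shared clone or day, and 2 pairs are too few to settle it. Of the 3 Klf genes 1 was called with DESeq2's size factors, without a filter, with DESeq2's test and with the block, 2 with the trend removed with and without the block, and 0 to 3 with 1 library left out. Genes called went from 1225 to 2589 without a filter, 1901 with DESeq2, 3253 with the block, 4685 with the trend removed, 6028 with both, and 506 to 9416 with 1 library left out. Neighbours called went from 4 to 13 within 1000 kb, 2 within 250 kb, 10 without a filter, 9 with DESeq2, 12 with the block, 17 with the trend removed, 18 with both, and 0 to 20 with 1 library left out. Of 33 other named genes, some turned sign: Xpo1 with upper-quartile scaling (0.036), library size only (0.050), limma voom (0.013) and the block (0.012), and Trp53 (-0.0069) and Esrrb (-0.0015) without a filter. With 1 library left out Sp1 ranged from -0.21 to 0.0081, Xpo1 from -0.20 to 0.22, Trp53 from -0.094 to 0.11, Esrrb from -0.16 to 0.21 and Gm12514 from -1.08 to 0.068. In all, 358 of the 461 fits of these named genes kept direction and call, 56 gained a call, 33 lost it and 14 turned sign; the cause was not tested. Counting error on the 3 Klf genes was 0.677% to 1.29% per library, and each group held 2 libraries.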
